A study of Mus musculus with 4 samples.

Results

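The mTORC1 regulators and ATF4-linked amino acid genes described here are 34 genes, chosen by name from the 23234 different gene symbols of the deposited tables. Each was found on exactly 1 of the 23700 rows. RNA was sequenced from helper T cells of the spleen of C57BL/6 mice aged 43 weeks. The group labelled RIPK1-KO (KO 1 and KO 2) comes from mice that lack RIPK1 in T cells, and the other group is labelled wild type (WT 1 and WT 2). The titles of all 4 libraries carry the word Ctrl, whose meaning the labels do not explain, and they name neither the Cre driver nor the deleted part of Ripk1. Every library gave 1 FPKM value per row, that is, its fragments divided by transcript length and by the mapped total, so levels can be compared between genes of different length.

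The kinase mTOR works in a pair of complexes. In mTORC1 it senses amino acids through the Rag GTPases and growth factors through the TSC complex and RHEB, and it drives protein, nucleotide and lipid synthesis. ATF4 is a transcription factor whose translation rises under amino acid shortage and other stress, and also under mTORC1 activity, and its targets include amino acid transporters, asparagine and serine synthesis enzymes and enzymes that carry one-carbon units on folate. T cells raise these transporters and enzymes when they are activated and grow.

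ATF4 binds DNA together with C/EBP proteins at an element with the core TGATGNAA. That core was searched on both strands of the RefSeq promoter windows (build GRCm38.p6, 250 bases before to 50 bases after the start of each gene), and 3.97% of all 32851 windows, or 4.51% of the 27025 genes with a window, held it. Of the 34 genes 30 had a window (no window was in the table for Deptor, Slc7a5, Slc1a5 and Slc38a1), and 3 of the 30 held the core: Asns, Trib3 and Chac1. They are printed because all 3 are known ATF4 targets that stood at different levels in these libraries, as described under their roles. In Asns, at chr6:7693214-7693243 on the minus strand, the core lies on the gene's own strand and begins 23 bases before the start site. In Trib3, at chr2:152344028-152344057 on the plus strand, it lies opposite to the gene and 15 bases into it. In Chac1, at chr2:119351038-119351067 on the minus strand, it lies opposite to the gene and 193 bases before the start site. The core is in capitals, and each stretch runs 5′ to 3′ on the strand named.
Asns: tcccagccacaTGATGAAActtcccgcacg
Trib3: ccccgcccggcTGATGTAAacctgagctaa
Chac1: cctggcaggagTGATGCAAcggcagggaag
A match is a description of these letters and not a binding site measured here, and the absence of the core from the windows of the other 27 genes says nothing about ATF4 at those genes.

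The tables hold no counts. From the steps of the low values the depth was estimated at 17570000 and 19080000 fragments in KO 1 and KO 2, and at 21290000 and 22100000 in WT 1 and WT 2, so that a transcript of 2 kb at 1 FPKM rested on about 35.1 to 44.2 fragments. Ripk1, the targeted gene, stood at 10.4 and 9.54 FPKM in KO and at 5.61 and 5.60 FPKM in WT, so KO did not fall below WT, and every direction here is that of the libraries as labelled. Since FPKM covers the gene as a whole, it cannot show the loss of single exons. Cd4 stood at 211 and 185 FPKM in KO and at 86.3 and 87.3 FPKM in WT. The 6 helper T cell markers, Cd4 among them, summed to 1276 and 1184.5 FPKM in KO against 806 and 1011 FPKM in WT. Not all of them were higher in KO. Cd3d stood at 175 and 169 FPKM in KO and at 185 and 238 FPKM in WT, and the groups overlapped for Cd3g. Summed FPKM of 5 cycling cell markers was 61.1 and 27.0 in KO against 3.60 and 4.40 in WT. That of 4 follicular helper markers was 91.5 and 84.9 against 7.91 and 22.5, and of 4 regulatory T cell markers 154 and 197 against 51.8 and 88.0. In KO, Ctla4 made up most of the regulatory sum, at 95.5 and 142 FPKM. Il2ra alone of those 4 lay lower in KO, at 27.6 and 27.2 FPKM against 35.6 and 29.4 FPKM in WT. Markers of other cells were summed too. For 6 erythroid genes the sums were 392 and 319 FPKM in KO against 6.33 and 99.0 FPKM in WT. These erythroid sums run over 8 rows, with the repeated rows of Hba-a1 and Hba-a2 included. Sums were 29.98 and 33.8 against 14.9 and 21.2 for 4 plasma cell genes, and 9.32 and 9.16 against 4.78 and 4.82 for 5 B cell genes. They were 4.69 and 6.66 against 1.28 and 2.96 for 6 myeloid genes, and 11.1 and 11.6 against 11.3 and 10.7 for 2 CD8 T cell genes. Xbp1 made up most of the plasma cell sum in every library. The groups overlapped for 1 of the 4 plasma cell genes, Sdc1, and for 2 of the 5 B cell genes, Cd79a and Pax5. They also overlapped for 5 of the 6 myeloid genes, all but Lyz2, and for the 2 CD8 T cell genes. No marker was at 0 in all 4 libraries; among the myeloid genes, Cd14 was listed at 0 in KO 2, WT 1 and WT 2. The part of these differences in cell makeup in the results below was not tested. In bulk RNA a changed share of cells of one kind and a changed amount of RNA per cell cannot be told apart.

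The question was which of these genes differed between KO and WT. As deposited, 10 of the 32 tested members (31.2%) were higher in KO and 0 were lower (limma on log2(FPKM + 1), adjusted p under 0.05). They were Mtor, Rptor, Rictor, Mlst8, Tsc2, Slc1a5, Slc38a1, Psat1, Ddit4 and Sesn3. Among all 11074 rows tested, 25.6% were higher and 1% lower, so the members' share lay near that of the whole table. At an unadjusted p under 0.05 in limma, 18 of the 32 tested members were higher and 0 lower, against 39.5% and 2.84% of all rows. By that looser measure the members' share higher exceeded that of the whole table, and no test of the members as a set was run. The median change of the tested members was 0.48 on the log2 scale and that of all tested rows 0.38, a difference of 0.10; the change of a gene relative to the median gene is its log2 change minus that 0.38. Both KO libraries lay above both WT libraries for 20 of the 32 tested members (62.5%, against 58.5% of all tested rows), and both lay below for 3, Rheb, Slc3a2 and Ddit3 (9.38%, against 12.1%). The mean FPKM was at least 2-fold higher in KO for 7 of the 32 (21.9%, against 19.4% of all tested rows). Asns and Chac1 did not reach 1 FPKM in 2 libraries and were not tested, and each of the 32 tested members had at least 1 FPKM in a library of both groups.

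Trimmed-mean scaling, which brings the median change of all rows to -0.01, left Slc1a5 and Slc38a1 higher and made Rheb and Ddit3 lower. These 2 and 2 of 32 (6.25% each) stand against 4.68% and 5.20% of all rows. After quantile normalization 0 members passed in either direction, against 1.62% higher and 0.695% lower among all rows. At an unadjusted p under 0.05 in limma, 6 of 32 were higher and 3 of 32 lower, against 16.2% and 17.6% of all rows. With no filter on low values 0 of 33 members passed in limma either. At an unadjusted p under 0.05, 15 of the 33 were higher and 1 lower, against 22.9% and 2.69% of 20086 rows. Those rows include the ones that did not reach the filter, so they are not like the members in level. Leaving out WT 1 ended the calls of all 10 members, leaving out KO 1 or WT 2 ended 6 each, and leaving out KO 2 ended 1, that of Rictor. Exons of 12 members overlap those of another annotated gene, mostly on the opposite strand, such as Tsc2 with Pkd1, Mlst8 with Bricd5 and Ddit3 with Mars; the labels do not say whether the counting used strand, and reads of such pairs may be mixed. Whether the pair of libraries in a group stems from separate mice is not stated, so the p-values rest on a spread that may be technical.

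**Figure D1:**
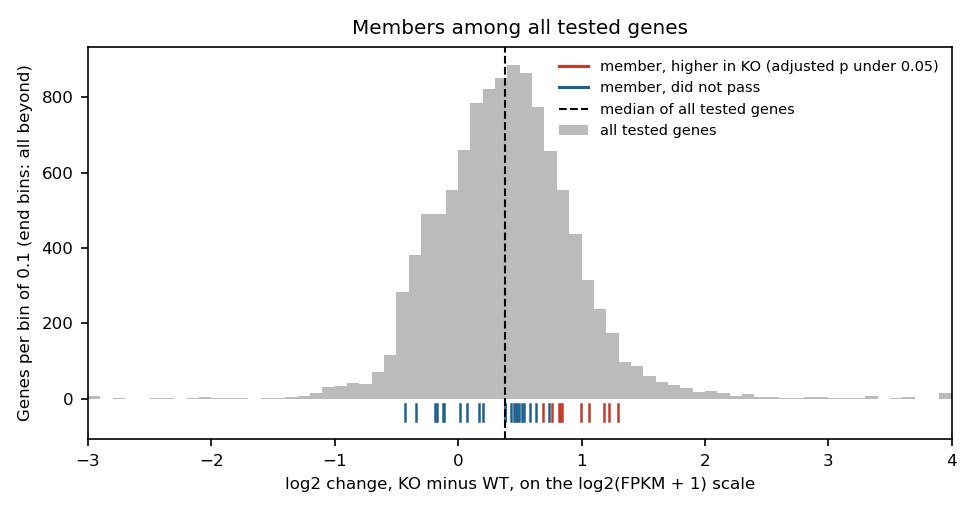
Log2 change between KO and WT on the log2(FPKM + 1) scale (horizontal axis) of all 11074 tested rows as a histogram, with the 32 tested members as ticks below it and the median of all rows (0.38) as a dashed line. The 10 members that were higher in KO lie between 0.69 and 1.30, and members lie on both sides of the median.

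Genes of the mTOR kinase complexes were higher in KO for 4 of 6 members, and the other pair, both inhibitory subunits, did not pass; the counts of this and the following role groups stand against 25.6% of all rows higher as deposited and 4.68% after trimmed-mean scaling. Mtor, the catalytic subunit of both complexes, stood at 3.73 and 3.46 FPKM in KO and at 1.67 and 1.53 FPKM in WT. Each KO library thus held more than either WT library, with little spread within a group, and the log2 change was 0.82 ± 0.17 (SE, n = 2 and 2 libraries; limma adjusted p = 0.0213), which is 0.44 more than the median gene. Rptor, the subunit that brings substrates to mTORC1, stood at 4.19 and 2.85 FPKM in KO and at 1.59 and 1.39 FPKM in WT, a mean 2.36 times as high in KO (limma adjusted p = 0.0305). Rictor, the scaffold of mTORC2, stood at 7.66 and 10.02 FPKM in KO and at 3.88 and 5.31 FPKM in WT, a mean 1.92 times as high (limma adjusted p = 0.0356). The groups did not overlap for either scaffold, but KO 1 was the higher KO library for Rptor and KO 2 for Rictor. The ratio of Rptor to Rictor was 0.547 and 0.285 in KO and 0.411 and 0.261 in WT, with overlapping groups. Mlst8, a subunit of both complexes, stood at 3.78 and 2.86 FPKM in KO and at 1.42 and 1.92 FPKM in WT, and was the member nearest the threshold among those called (limma adjusted p = 0.0482).

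The inhibitory subunits gave other values. Akt1s1, which encodes the mTORC1 inhibitor PRAS40, stood at 5.75 and 7.90 FPKM in KO and at 3.72 and 6.51 FPKM in WT. The groups overlapped, and its log2 change of 0.38 ± 0.27 (SE; limma adjusted p = 0.309) equalled that of the median gene. Deptor, an inhibitor of both complexes, was the lowest of the 6, at 1.04 and 0.961 FPKM in KO and 1.04 and 0.778 FPKM in WT (limma adjusted p = 0.808). The 4 calls did not hold after trimmed-mean scaling, where the log2 changes of Mtor, Rptor, Rictor and Mlst8 were 0.48, 0.51, 0.40 and 0.36 (limma adjusted p = 0.114 to 0.229).

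Among the upstream GTPases and their regulators 1 of 5 was called, and Rheb stood apart from its own inhibitors. Tsc2, the GTPase-activating subunit of the TSC complex that switches RHEB off, stood at 6.11 and 5.63 FPKM in KO and at 2.65 and 3.48 FPKM in WT. It was higher in both KO libraries, with a log2 change of 0.76 ± 0.19 (SE, n = 2 and 2 libraries; limma adjusted p = 0.0287). Tsc1, its partner, had a similar ratio of means, 1.98 against 1.92 for Tsc2, but a wider spread, 3.33 and 4.44 FPKM in KO and 1.45 and 2.46 FPKM in WT, and did not pass (limma adjusted p = 0.0581). Rheb, the GTPase that activates mTORC1, stood at 20.6 and 17.4 FPKM in KO and at 24.7 and 23.9 FPKM in WT. Both KO libraries lay below both WT libraries; the log2 change was -0.35 ± 0.20 as deposited (SE; limma adjusted p = 0.216) and -0.81 ± 0.17 after trimmed-mean scaling (limma adjusted p = 0.0450). Rraga and Rragc, subunits of the Rag heterodimer that brings mTORC1 to the lysosome, changed by 0.45 and 0.47 on the log2 scale, 0.07 and 0.09 above the median gene, and did not pass (limma adjusted p = 0.209 and 0.0851).

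A ratio between genes within a library does not change when the library is multiplied by a factor, as in trimmed-mean scaling. Quantile normalization can change it. The pairs were chosen after the values were seen, so the ratios are given without a test. Mtor stood to Rheb as 0.181 and 0.199 in KO and as 0.0674 and 0.0639 in WT, and Tsc2 to Rheb as 0.297 and 0.325 in KO and as 0.107 and 0.146 in WT. In every library Rheb had the highest FPKM of these 3 genes, and the gap was smaller in both KO libraries than in both WT libraries.

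**Figure D2:**
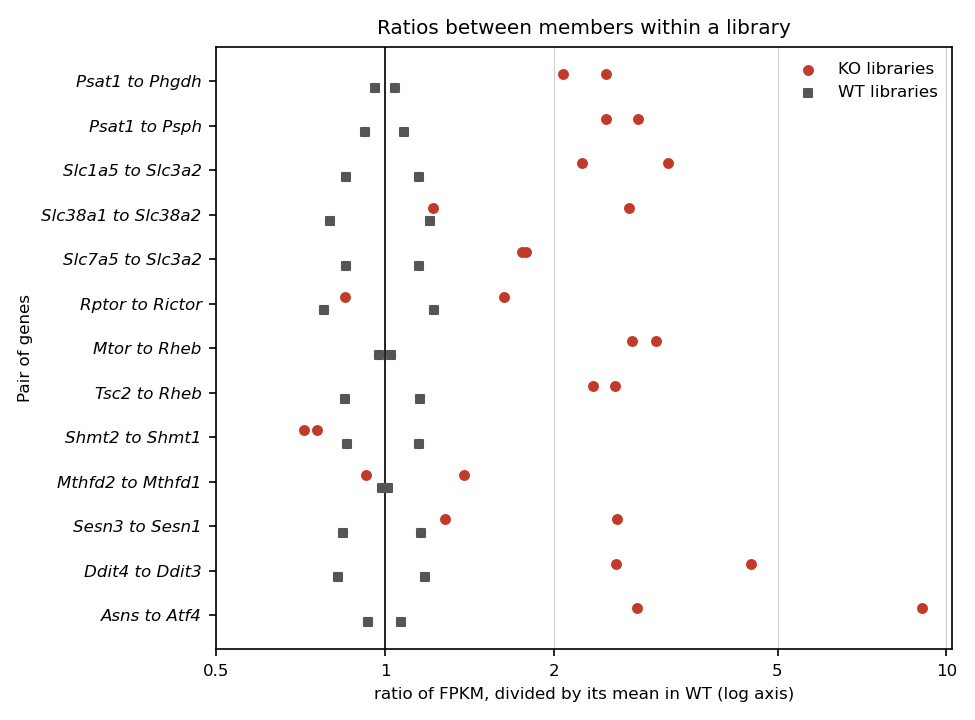
Ratios of the FPKM of 13 pairs of members within each library, divided by the mean ratio in WT (horizontal log axis); circles are the KO libraries and squares the WT libraries. Both KO libraries lie above both WT libraries in 10 pairs and below them in 1, Shmt2 to Shmt1. The groups overlap in 2, Rptor to Rictor and Mthfd2 to Mthfd1. The pairs were chosen after the values were seen, so these counts only describe the pairs shown.

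The neutral amino acid transporters differed among themselves: 2 of 5 were higher in KO under both the deposited and the trimmed-mean scaling. Slc1a5 encodes ASCT2, a carrier of glutamine and other neutral amino acids, and stood at 49.7 and 43.3 FPKM in KO and at 16.5 and 22.6 FPKM in WT. Both KO libraries exceeded both WT libraries, and the log2 change was 1.22 ± 0.23 as deposited (SE, n = 2 and 2 libraries; limma adjusted p = 0.0173) and 0.75 ± 0.17 after trimmed-mean scaling (limma adjusted p = 0.0476). Slc38a1, a sodium-coupled neutral amino acid transporter, stood at 12.8 and 12.4 FPKM in KO and at 4.67 and 5.34 FPKM in WT. Its libraries agreed closely within each group, and its log2 change was 1.18 ± 0.18 (SE; limma adjusted p = 0.0131) and 0.76 ± 0.15 after trimmed-mean scaling (limma adjusted p = 0.0421). Without WT 1 neither passed (limma adjusted p = 0.0860 for Slc1a5 and 0.0835 for Slc38a1), at log2 changes of 1.01 and 1.10.

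Slc38a2, the close relative of Slc38a1 and a known ATF4 target, stood at 28.1 and 60.9 FPKM in KO and at 23.2 and 40.0 FPKM in WT. The libraries of a group differed by more than the group means, and the difference did not pass (limma adjusted p = 0.445). The CD98 heterodimer, which imports leucine and other large neutral amino acids, consists of the light chain encoded by Slc7a5 and the heavy chain encoded by Slc3a2. Slc7a5 stood at 4.66 and 5.69 FPKM in KO and at 2.79 and 3.79 FPKM in WT, a log2 change of 0.53 that did not pass (limma adjusted p = 0.0906). Slc3a2 stood at 64.1 and 79.4 FPKM in KO and at 79.9 and 80.8 FPKM in WT, a log2 change of -0.17 (limma adjusted p = 0.583). The heavy chain had the higher FPKM in every library: Slc7a5 stood to Slc3a2 as 0.0727 and 0.0716 in KO and as 0.0349 and 0.0469 in WT. Slc1a5 stood to Slc3a2 as 0.775 and 0.545 in KO and as 0.207 and 0.280 in WT.

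In asparagine and serine synthesis 1 of the 3 tested enzymes was higher in KO, and the other serine pathway enzymes did not pass. Asns, asparagine synthetase, whose promoter core is printed above, was low everywhere, at 1.25 and 0.664 FPKM in KO and 0.162 and 0.235 FPKM in WT. On its longest annotated transcript these values correspond to about 44 and 26 fragments in KO and 7 and 10 in WT. Both KO libraries lay above both WT libraries, with a mean of 0.957 ± 0.414 FPKM in KO and 0.199 ± 0.0519 FPKM in WT (SD, n = 2 each). With no filter on low values its log2 change on the log2(FPKM + 1) scale was 0.69 ± 0.18 and did not pass (SE; limma adjusted p = 0.123).

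Serine is made from a glycolytic intermediate in successive steps by PHGDH, PSAT1 and PSPH. Psat1, the aminotransferase of the middle step, stood at 13.7 and 11.3 FPKM in KO and at 5.58 and 5.34 FPKM in WT, a log2 change of 1.06 ± 0.18 (SE, n = 2 and 2 libraries; limma adjusted p = 0.0151). After trimmed-mean scaling it was 0.63 and did not pass (limma adjusted p = 0.0633). Phgdh, the dehydrogenase of the entry step, stood at 28.0 and 19.3 FPKM in KO and at 22.6 and 23.5 FPKM in WT, with both WT values between the KO values (limma adjusted p = 0.972). Psph, the phosphatase of the final step, stood at 7.95 and 5.73 FPKM in KO and at 8.66 and 7.07 FPKM in WT (limma adjusted p = 0.530). Psat1 therefore lay below Psph in both WT libraries and above it in both KO libraries: the ratio of Psat1 to Psph was 1.73 and 1.98 in KO and 0.645 and 0.755 in WT. Psat1 stood to Phgdh as 0.491 and 0.586 in KO and as 0.247 and 0.227 in WT. Phgdh shares at least 90% of its letters over at least 300 bases with 17 annotated pseudogenes, and Psat1 with 1, and how the authors' counting split such reads is not stated, so these levels are uncertain.

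All 5 enzymes of folate one-carbon metabolism lay higher in both KO libraries than in both WT libraries, and 0 passed in limma over all rows, while 4 had an unadjusted p under 0.05. Of all tested rows 58.5% lay higher in both KO libraries and 39.5% were higher at that unadjusted p. Shmt1, the cytosolic serine hydroxymethyltransferase, came nearest, at 2.65 and 2.34 FPKM in KO and 1.03 and 1.49 FPKM in WT (limma adjusted p = 0.0550). Shmt2, its mitochondrial counterpart, stood at 12.6 and 10.5 FPKM in KO and at 7.43 and 7.99 FPKM in WT (limma adjusted p = 0.0775). Mthfd1l, a mitochondrial formate-producing enzyme, stood at 7.89 and 8.26 FPKM in KO and at 5.53 and 5.52 FPKM in WT (limma adjusted p = 0.0765). Mthfd2, the mitochondrial dehydrogenase known for its induction in activated T cells, stood at 19.3 and 13.3 FPKM in KO and at 9.40 and 11.5 FPKM in WT. Its KO libraries differed by more than the gap between KO 2 and WT 2 (limma adjusted p = 0.110). Mthfd1, the cytosolic trifunctional enzyme, stood at 6.29 and 6.47 FPKM in KO and at 4.16 and 5.25 FPKM in WT (limma adjusted p = 0.160). The median log2 change of the 5 was 0.52, or 0.14 above the median gene, and after trimmed-mean scaling it was 0.08. Shmt2 stood to Shmt1 as 4.75 and 4.49 in KO and as 7.19 and 5.35 in WT, so this ratio was lower in both KO libraries, and Mthfd2 stood to Mthfd1 as 3.08 and 2.06 in KO and as 2.26 and 2.20 in WT, with overlapping groups.

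None of the 3 stress transcription factors passed as higher in KO, and all 3 had a log2 change below that of the median gene. Atf4 had the highest mean FPKM of all 34 members in both groups. It stood at 72.7 and 124 FPKM in KO and at 79.8 and 132 FPKM in WT, so that libraries of a group differed far more than the groups did (log2 change -0.11 ± 0.36, SE; limma adjusted p = 0.825). ATF4 is set largely by translation, which these values do not measure. Atf5, a related factor also under translational control, was low, at 1.42 and 1.66 FPKM in KO and 1.002 and 1.44 FPKM in WT (limma adjusted p = 0.476). Ddit3 encodes CHOP, the stress factor downstream of ATF4, and stood at 15.3 and 16.3 FPKM in KO and at 21.3 and 21.9 FPKM in WT. Both KO libraries lay below both WT libraries; the log2 change was -0.43 ± 0.18 as deposited (SE; limma adjusted p = 0.125) and -0.89 ± 0.16 after trimmed-mean scaling (limma adjusted p = 0.0354).

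Of the inhibitors and feedback genes, Ddit4 and Sesn3 were higher in KO. Ddit4 encodes REDD1, which restrains mTORC1 through the TSC complex, and stood at 73.1 and 44.8 FPKM in KO and at 26.7 and 19.2 FPKM in WT. The KO libraries differed widely but both exceeded both WT libraries, and the log2 change of 1.30 ± 0.30 was the largest among the tested members (SE, n = 2 and 2 libraries; limma adjusted p = 0.0250). The ratio of Ddit4 to Ddit3 was 4.78 and 2.74 in KO and 1.25 and 0.878 in WT. After trimmed-mean scaling the change of Ddit4 was 0.83 and did not pass (limma adjusted p = 0.106).

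The sestrins restrain mTORC1 when amino acids are scarce. Sesn3 stood at 27.4 and 19.3 FPKM in KO and at 9.98 and 12.2 FPKM in WT, a log2 change of 0.995 ± 0.234 (SE, n = 2 and 2 libraries; limma adjusted p = 0.0266), and of 0.54 after trimmed-mean scaling (limma adjusted p = 0.104). Sesn1 stood at 13.5 and 19.3 FPKM in KO and at 10.96 and 18.6 FPKM in WT, with overlapping groups (limma adjusted p = 0.688). Sesn2, a leucine-binding member and an ATF4 target, was far lower than the others, at 1.60 and 2.06 FPKM in KO and 1.16 and 0.865 FPKM in WT (limma adjusted p = 0.114). The order of the sestrins was Sesn3, Sesn1, Sesn2 in KO by mean level (23.4, 16.4 and 1.83 FPKM) and Sesn1, Sesn3, Sesn2 in WT (14.8, 11.1 and 1.01 FPKM), where the ranges of Sesn1 and Sesn3 overlapped; in KO the lower Sesn3 value met the higher Sesn1 value at 19.3 FPKM. Trib3, a pseudokinase that restrains AKT and is induced by ATF4 and CHOP, stood at 0.890 and 1.46 FPKM in KO and at 1.08 and 1.66 FPKM in WT (limma adjusted p = 0.701). Chac1, an ATF4 and CHOP target that degrades glutathione, was listed at 0 in all 4 libraries. The genes whose promoter cores are printed above thus ran from groups that did not overlap but did not pass (Asns) through overlapping groups (Trib3) to a level listed at 0 (Chac1).

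**Figure D3:**
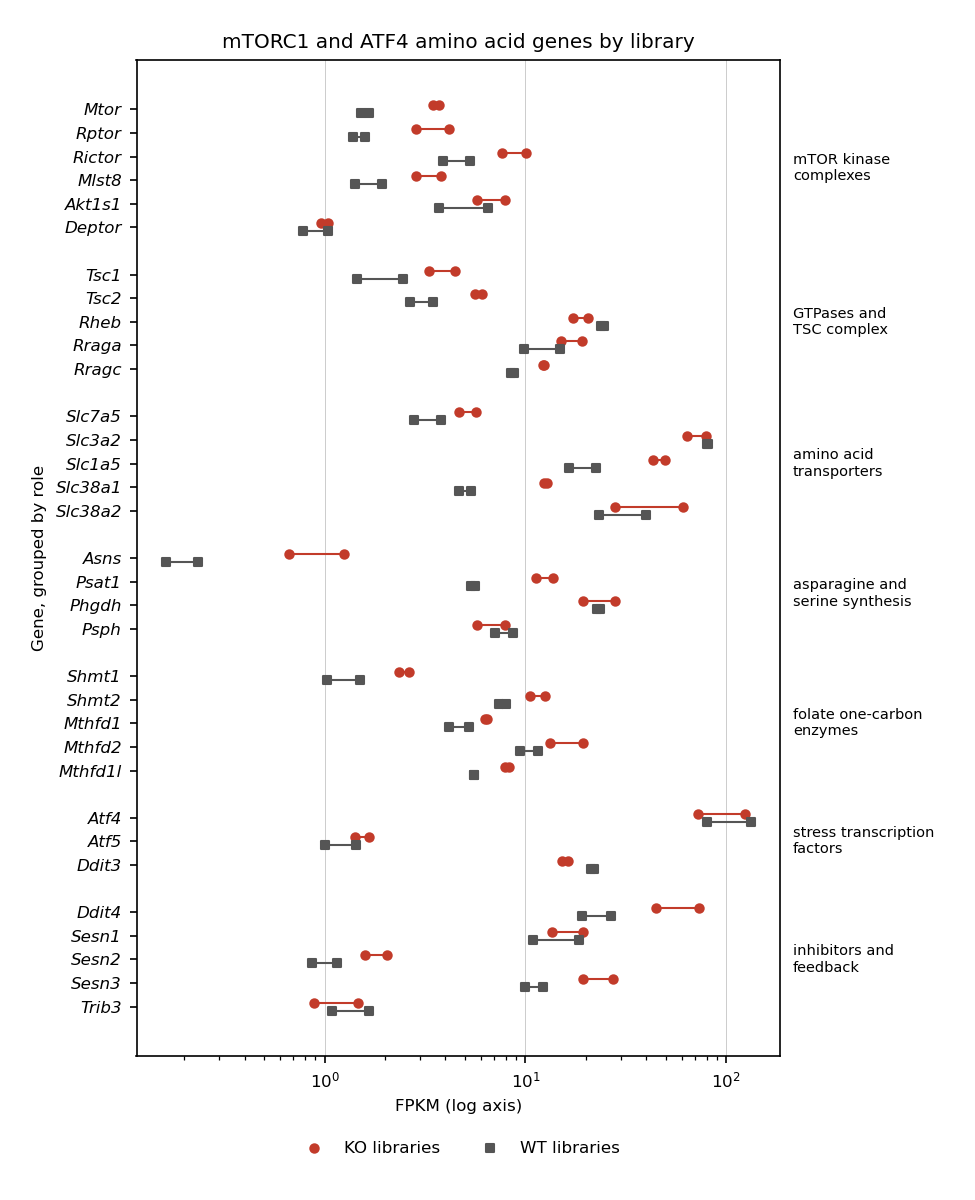
FPKM of 33 members in each library on a log axis, grouped by role, with KO libraries as circles and WT libraries as squares joined by a line within a group; Chac1, listed at 0, is left out. Mtor, Slc1a5, Slc38a1, Psat1 and Ddit4 show KO libraries well to the right of WT libraries, Rheb and Ddit3 to the left, and Atf4 and Slc38a2 show wide spread within both groups.

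**Figure D4:**
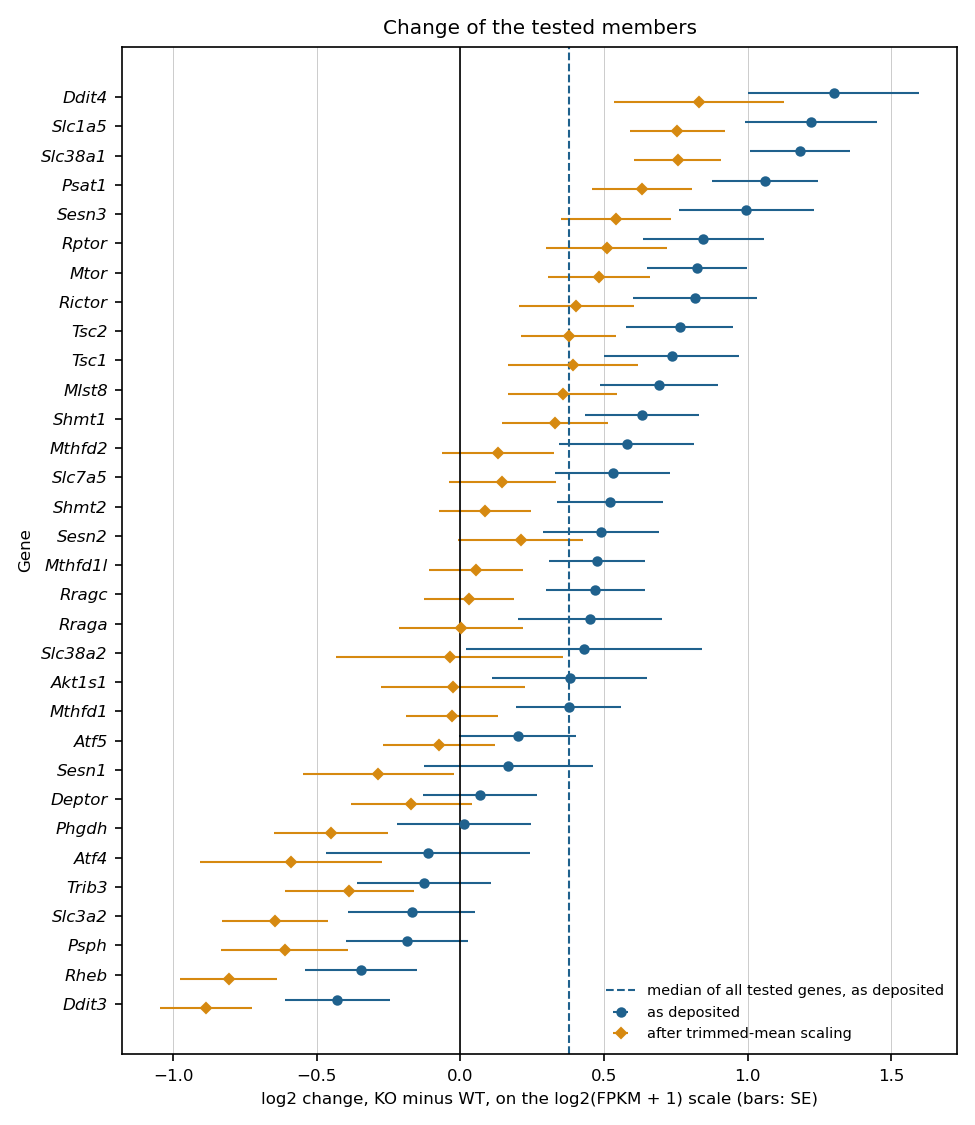
Log2 change between KO and WT with its SE for the 32 tested members, as deposited (circles) and after trimmed-mean scaling (diamonds); the dashed line is the median of all tested rows as deposited (0.38). Scaling moves every member to the left: Slc1a5 and Slc38a1 keep their calls, and Rheb and Ddit3 pass as lower.

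KO 1 and KO 2 were not alike for several of the members described. KO 1 was the higher for Ddit4, Sesn3, Asns, Psat1, Rptor and Mthfd2, and KO 2 for Rictor, Slc38a2 and Atf4. The WT libraries differed too: WT 2 was the higher for Rictor, Slc38a2 and Atf4, and also for Sesn3, Asns and Mthfd2, and WT 1 for Ddit4, Psat1 and Rptor. The summed cycling markers were likewise higher in KO 1 (61.1 FPKM) than in KO 2 (27.0 FPKM), and their part in these differences was not tested.

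Other genes of the pathway, 81 in 4 lists, were read for comparison, and 17 of the 68 tested were higher in KO and 0 lower, against the 25.6% and 1% of all rows. The list of mTORC2 subunits, mTOR substrates and related genes counted 7 of 14: Mapkap1, a core mTORC2 subunit, the kinases Akt1 and Akt2, Rps6kb2, a kinase of ribosomal protein S6, the translation repressors Eif4ebp1 and Eif4ebp2, and Ulk1, the kinase that starts autophagy. Eif4ebp2 stood at 28.3 and 32.5 FPKM in KO and at 11.6 and 14.7 FPKM in WT (limma adjusted p = 0.0164). Rps6kb2 stood at 9.29 and 9.89 FPKM in KO and at 4.48 and 4.76 FPKM in WT (limma adjusted p = 0.0171). Both genes lay clear of WT in both KO libraries. The 14 include Pdk1, a pyruvate dehydrogenase kinase gene listed in error for Pdpk1, and it was not called. In the nutrient-sensing list 3 of 24 were higher, among them Castor1, an arginine sensor, and Fnip1, a partner of folliculin. The median log2 change of that list was 0.38, the same as that of all tested rows.

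Among other amino acid and one-carbon genes 6 of 18 tested were higher, against 25.6% of all rows. They were the transporters Slc7a1, Slc36a1 and Slc43a2, the proline synthesis enzyme Aldh18a1, the mitochondrial serine carrier Sfxn1 and methionine synthase, Mtr. Slc43a2, a carrier of large neutral amino acids, stood at 4.86 and 3.90 FPKM in KO and at 1.48 and 1.47 FPKM in WT (limma adjusted p = 0.0142). Of the 12 tested genes of the integrated stress response, the pathway that acts through ATF4, 1 was higher. It was the heme-regulated kinase Eif2ak1, at 12.5 and 11.1 FPKM in KO and 7.01 and 5.60 FPKM in WT (limma adjusted p = 0.0263). That list is not limited to genes upstream of ATF4. The amino acid sensing kinase gene Eif2ak4 stood at 2.45 and 2.85 FPKM in KO and at 1.38 and 1.62 FPKM in WT and did not pass (limma adjusted p = 0.0677). After trimmed-mean scaling 0 of the 68 were higher and 2 lower, Lamtor2 of the Ragulator complex and Tyms, thymidylate synthase (limma adjusted p = 0.0478 and 0.0494).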

How the data were processed

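For each library the authors deposited gene symbols with their FPKM, per the file headers. Per the labels' protocols, libraries were made with the NEBNext Ultra RNA kit from 200 ng of total RNA. The submitters' processing notes list Bowtie 0.12.2 and mm8; which program and gene models gave the FPKM is not stated there.

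The 34 members and all lists were chosen with earlier results of these data known. KO and WT were compared with limma 3.58.1 (R 4.3.3, intensity trend) on log2(FPKM + 1) for rows that reached 1 FPKM in 2 or more libraries, with two-sided tests and Benjamini-Hochberg adjustment over all 11074 rows. Log2 changes on this scale understate those of low genes. With 2 libraries a group, an exact two-sided permutation test cannot go below p = 0.333. Trimmed-mean scaling was an own implementation against WT 1 (trimming 30% of log ratios and 5% of levels per end). Its factors were 1.21 and 1.16 in KO 1 and KO 2, and 0.791 and 0.905 in WT 1 and WT 2. Depth was estimated as the value that makes the fragments of low genes with 1 transcript whole, assuming fragments of 200 nt (54.3% to 61.4% within 0.05 of a whole number), and no count test was run. Of the 81 other pathway genes 5 were matched through a synonym. The rule for named genes gave every member by role, with each library's value where it was called. The procedure was tested on simulated data. In its limma part few rows were raised and no library was shifted as a whole. That part therefore does not cover the dependence of the calls on scaling. Sequences are from the RefSeq promoter table of GRCm38.p6; since those notes name mm8, no coordinates of the deposited data are used. Lengths, overlaps and pseudogenes come from GENCODE annotation of the same build, with minimap2. Scripts ran in Python 3.11.15 (pandas 2.3.3, numpy 2.4.6, matplotlib 3.10.9). Some single-gene values of the lists are not reported here.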

Additional observations from a re-analysis of the deposited data

How the results depend on the processing

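The 10 calls are limited by 2 libraries per group and by the scaling. Against 10 members higher and 0 lower, and 2832 and 111 of all rows, trimmed-mean scaling gave 2 and 2 members and 518 and 576 rows, and quantile normalization 0 members and 179 rows higher. With no filter 0 of 33 members and 3 of 20086 rows were higher and 0 rows lower in limma. At an unadjusted p under 0.05, 15 of the 33 members were higher and 1 lower, against 22.9% and 2.69% of those rows. The relative member median was then 0.39. The median change of all rows had fallen from 0.38 to 0.10 as low rows entered, while the log2 changes of the members tested as deposited stayed the same. With both pseudocounts, the stricter filter and no trend 7 to 10 members were higher. On leaving out 1 library, members called higher ran from 0 to 9, rows higher from 9 to 2189 and rows lower from 0 to 123, and the relative member median from 0.035 to 0.23. The lone library of a group is then assumed to vary like the other group.

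The replicate numbers name no shared mouse, batch or day. Deviations of same-numbered libraries from their group means had a Pearson r of 0.11 across genes, and with the replicate block 13 members and 3909 rows were higher and 230 rows lower.

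The members that changed sign under a setting had not passed as deposited. After trimmed-mean scaling log2 changes were -0.026 for Akt1s1, -0.075 for Atf5, -0.17 for Deptor, -0.030 for Mthfd1, -0.45 for Phgdh, -0.28 for Sesn1 and -0.037 for Slc38a2. After quantile normalization they were -0.084 for Akt1s1, -0.13 for Atf5, -0.33 for Deptor, -0.087 for Mthfd1, -0.34 for Phgdh and -0.23 for Sesn1. On leaving out 1 library Atf4 ran from -0.49 to 0.27, Deptor from -0.030 to 0.097, Phgdh from -0.24 to 0.27, Psph from -0.39 to 0.020, Sesn1 from -0.19 to 0.52, Slc38a2 from -0.11 to 0.98 and Trib3 from -0.32 to 0.065. The cause was not tested. Asns, Trib3 and Atf5 rest on the fewest estimated fragments of the 33 members with a value, 7 to 74 a library, and Chac1 was listed at 0.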
